A study of Mus musculus with 246 samples.

Results

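The astrocyte genes described here are 31 genes widely used to mark astrocytes, chosen by name out of 56691 genes in the table, and followed through 6 brain regions of 41 mice. All 31 were matched by symbol to a single row of the table, and none stood at 0 in any library. The mice were adult male outbred CD1 animals, and tissue punches from both hemispheres were pooled for each region. The cortex was sampled in its medial prefrontal part (mPFC, labelled PFC) and in the anterior cingulate (ACC). The subcortical punches came from the nucleus accumbens (Nacc) and the dorsomedial part of the thalamus (DMT). Others came from the basolateral nuclei of the amygdala (BLA) and the ventral part of the hippocampus (vHipp, labelled HC). For the Nacc the study names the shell in its methods and the core in its introduction. Early life adversity (ELA) was imposed by limiting the bedding and nesting material of the dam in the postnatal period. SAFit2, an inhibitor of the stress-related co-chaperone FKBP51, was given to the dam in a slow-release gel, so that pups received it only through the milk, and vehicle was the gel alone. Ctrl_Vehicle mice (Ctrl_Veh) were reared with standard nesting and vehicle, ELA_Vehicle mice (ELA_Veh) with adversity and vehicle, and ELA_SAFit2 mice with adversity and the inhibitor. There was no group with standard rearing and SAFit2, and all groups were housed in mixed cages after weaning. Of each condition, 7 mice were taken without a social encounter (NoInteraction), and 6 Ctrl_Veh, 7 ELA_Veh and 7 ELA_SAFit2 mice after 10 min with an unfamiliar mouse (SocialInteraction), so the 2 sets are different animals.

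Astrocytes are the glial cells that wrap synapses and blood vessels, take up glutamate and potassium, return glutamine to neurons, store glycogen and are joined to each other by gap junctions. They are not uniform: thalamic, striatal, cortical and hippocampal astrocytes are known to differ in gene expression, and the cytoskeletal protein GFAP is prominent in the hippocampus and sparse in most cortical and thalamic grey matter. Levels below are counts scaled to library size, CPM, on a single scale for all libraries, and differences are given on the log2 scale with their standard error. In punches of whole tissue, fewer astrocytes and less RNA per astrocyte cannot be told apart.

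Totals of estimated counts ran from 20804247 to 43351424 per library, with a median of 28844788. In the Nacc, 12 libraries, 2 in each of the 6 groups, resembled another mouse than the labelled animal in 60 genes that differ between mice, with a correlation of -0.23 to 0.12 with the labelled mouse and of 0.90 to 0.97 with another, and in the other 5 regions no library did. Of the 12, 8 matched best a mouse of the other set and 7 a mouse of another condition. They were kept under their labels, and values without them are given where they matter. Library names were numbered in 2 separate runs. The former held 40 mPFC libraries, and the latter the last mPFC library and all of the other 5 regions. The mPFC and the former run therefore cannot be told apart. The other 5 regions share the latter run, in which ACC, Nacc and BLA libraries were numbered region by region. In the mPFC, 10 libraries held over 2 times the region's median level of olfactory bulb markers, as did 2 in the ACC. Markers of choroid plexus and ependyma made up 0.00163% to 0.570% of the counts of a BLA library.

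Compared per kilobase of annotated exon, the most abundant of the 31 were the lipid carrier gene Apoe at 462 CPM per kb, Glul, which encodes the glutamine-forming enzyme glutamine synthetase, at 301, and Clu, the secreted chaperone clusterin, at 162. The glycolytic aldolase gene Aldoc followed at 147 and Atp1b2, a subunit of the sodium pump, at 106 CPM per kb. The least abundant was Gli3, a transcription factor of the hedgehog pathway, at 1.21 CPM per kb. Summed over the 31 genes, these markers made up 0.613% ± 0.0253 (SD, n = 41) of the counts of DMT libraries and 0.614% ± 0.0387 of those of vHipp libraries. The Nacc followed with 0.481% ± 0.0409 and the BLA with 0.473% ± 0.0276. Lower still were the mPFC with 0.426% ± 0.0528 and the ACC with 0.423% ± 0.0241. Abundant genes weigh most in this sum, with means over the regions of 1001 CPM for Glul, 989 for Apoe and 11.6 for Gli3. Regions accounted for between 44% (Fabp7) and 93.4% (Atp1b2) of the variance of a gene's log2 level, with a median of 73.8%, whereas the mouse accounted for 1.39% to 26.8%, with a median of 6.93%.

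Each region was compared with the mean of the other 5, taken on the log2 scale, with the mouse as a block. A gene was called when its adjusted p (edgeR's quasi-likelihood test, Benjamini-Hochberg over 17381 genes) was under 0.05 and its log2 difference over 0.5. In the DMT, 13 of the 31 were called higher against 18.0% of all genes, and 2 lower against 17.8%. In the vHipp 8 were called higher against 11.6% of all genes and 0 lower against 12.7%. Both cortical regions stood the other way, with 0 higher and 5 lower in the mPFC (8.73% and 10.7% of all genes) and 0 higher and 8 lower in the ACC (8.55% and 10.9%). The Nacc had 1 higher and 2 lower (10.3% and 11.2% of all genes), and the BLA 2 higher and 3 lower (12.7% and 5.55%). Over the 31 genes the median log2 difference was 0.42 in DMT libraries, 0.36 in vHipp libraries, -0.10 in the Nacc and the BLA, -0.32 in the ACC and -0.33 in the mPFC, where that of all genes lay between -0.02 and 0.01. Of the 31, 27 lay above 0 in the vHipp and 24 in the DMT, against 2 in the mPFC and 1 in the ACC.

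**Figure D1:**
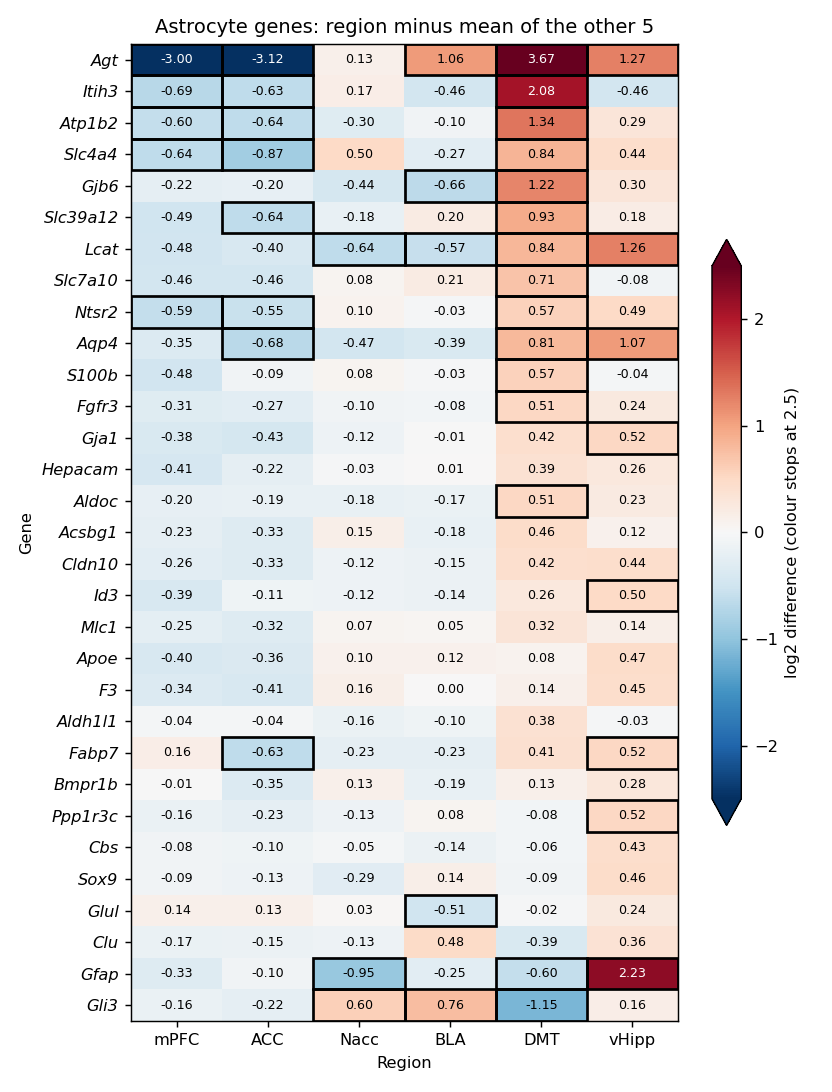
Log2 difference of each of the 31 astrocyte genes (rows) between a brain region (columns) and the mean of the other 5 regions, n = 41 libraries per region, with black boxes around called differences. Colours stop at 2.5 in either direction; the DMT column holds 13 boxed higher genes, the vHipp column 8, and the mPFC and ACC columns none.

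All 31 genes passed the F test over the 6 regions, as did 16919 of the 17381 genes tested, so differing between regions did not set them apart. A call against the other 5 regions was made for 20 of them in at least 1 region. The 11 genes called nowhere were Aldh1l1, Sox9, Acsbg1, Mlc1, Hepacam, F3, Cbs, Cldn10, Clu, Apoe and Bmpr1b. Among these, the ratio between the region means was smallest for Aldh1l1, the folate enzyme often used as a pan-astrocyte marker, at 1.36. Highest means fell in the DMT for 15 genes, in the vHipp for 14 and in the BLA for Gli3 and Clu. The ACC held the lowest mean of 14 genes, the mPFC of 8, the Nacc of 4 and the BLA of 3, and the DMT that of 2, which were again Gli3 and Clu.

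Among the secreted proteins, Agt differed most. It encodes angiotensinogen, the precursor of the angiotensins, which astrocytes make in the brain. Its lowest, median and highest CPM were 80.4, 114 and 150 in the DMT, 16.6, 27.4 and 50.5 in the vHipp, 13.8, 25.1 and 58.9 in the BLA, 2.67, 11.7 and 65.4 in the Nacc, 1.01, 2.47 and 4.22 in the mPFC and 1.68, 2.20 and 3.89 in the ACC (n = 41 each). Every DMT library lay above every library of the other regions, and the Nacc libraries spread from cortical levels to above the BLA range. The difference was 3.67 ± 0.077 in the DMT, a 12.7-fold change (adjusted p = 2.08e-111), 1.27 ± 0.088 in the vHipp and 1.06 ± 0.089 in the BLA. It was -3.00 ± 0.129 in the mPFC and -3.12 ± 0.131 in the ACC, and 0.13 in the Nacc, where no call was made (adjusted p = 0.221). The step between the vHipp and the BLA did not pass the test (adjusted p = 0.162), nor did that between the mPFC and the ACC (adjusted p = 0.704). The ratio of the highest to the lowest region mean, 49.6, was the largest of the 31, followed by 5.85 for Gfap.

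Itih3, a heavy chain of a plasma protease inhibitor that binds hyaluronan, shared the thalamic peak. Its lowest, median and highest CPM in the DMT were 106.6, 156 and 192, against 22.0, 42.4 and 164 in the Nacc. In the other 4 regions its mean lay between 31.5 and 36.4 CPM. The DMT difference was 2.08 ± 0.05 (adjusted p = 7.25e-101), and the cortical differences were -0.69 ± 0.061 in the mPFC and -0.63 ± 0.061 in the ACC. Neither the vHipp and BLA levels (adjusted p = 0.965) nor those of the ACC and the mPFC (adjusted p = 0.628) differed by enough to pass the test.

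Lcat, which esterifies cholesterol on lipoproteins, was high in both the vHipp and the DMT. Its CPM ran from 20.6 to 36.4 in the vHipp, from 18.8 to 29.4 in the DMT and from 8.55 to 14.4 in the ACC, so the ACC libraries lay under all libraries of the former 2. The differences were 1.26 ± 0.041 in the vHipp, 0.84 ± 0.042 in the DMT, -0.64 ± 0.047 in the Nacc and -0.57 ± 0.047 in the BLA. Apoe was highest in the vHipp at 1272 ± 112 CPM and lowest in the mPFC at 775 ± 157, and Clu was highest in the BLA at 722 ± 84.6 and lowest in the DMT at 438 ± 48.8, without a call. Clu in the BLA moved with choroid plexus and ependymal markers, and its mean in the 10 BLA libraries with the least of them was 624 CPM, under the vHipp mean of 674. F3, the tissue factor that starts blood coagulation, ranged from 17.7 ± 2.46 CPM in the ACC to 28.9 ± 3.24 in the vHipp.

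Of the channels, pumps and transporters, Atp1b2 had the clearest thalamic level. Its lowest, median and highest CPM were 749, 862 and 939 in the DMT, and the vHipp came next with 399, 458 and 555, without overlap. The difference was 1.34 ± 0.023 in the DMT (adjusted p = 8.31e-127), -0.60 ± 0.027 in the mPFC and -0.64 ± 0.027 in the ACC. Slc39a12, a zinc transporter, ran from 56.95 to 71.6 CPM in the DMT and did not overlap with the BLA, the next region, at 34.8 to 55.4 CPM (DMT difference 0.93 ± 0.023). Slc4a4, the sodium bicarbonate cotransporter that sets astrocyte pH, averaged 330 ± 18.0 CPM in the DMT and 123 ± 15.3 in the ACC. It was higher in the DMT by 0.84 ± 0.029, and the values in the ACC and the mPFC were -0.87 ± 0.033 and -0.64 ± 0.032. Slc7a10, which carries small neutral amino acids such as D-serine, was higher in the DMT by 0.71 ± 0.024.

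Aqp4, the water channel of astrocyte endfeet, ran from 134 over a median of 187 to 224 CPM in the vHipp and from 116 over 155 to 238 CPM in the DMT, whereas the ACC held 46.2, 66.5 and 100 CPM. ACC libraries lay under all those of the vHipp and the DMT. Its difference was 1.07 ± 0.04 in the vHipp, 0.81 ± 0.041 in the DMT and -0.68 ± 0.046 in the ACC, and neither the mPFC against the BLA (adjusted p = 0.635) nor the BLA against the Nacc (adjusted p = 0.293) passed the test. Mlc1 and Hepacam, membrane partners at astrocyte junctions, both had their highest mean in the DMT, at 121 ± 9.46 and 80.98 ± 5.13 CPM. Cldn10, a claudin, was at 26.2 ± 2.33 CPM in the vHipp and 26.0 ± 2.36 in the DMT, a step that did not pass the test (adjusted p = 0.562), and at 16.8 ± 1.53 in the ACC.

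The gap junction genes did not share an order. Gjb6, which encodes connexin 30, ran from 49.03 over a median of 61.04 to 87.9 CPM in the DMT and from 15.3 over 19.2 to 35 in the BLA, with a difference of 1.22 ± 0.037 in the DMT (adjusted p = 7.33e-83) and -0.66 ± 0.043 in the BLA (adjusted p = 4.79e-35). No BLA library reached the DMT range. Gja1, which encodes connexin 43, was highest in the vHipp at 235 ± 17.5 CPM, ahead of the DMT at 221 ± 14.7 (adjusted p = 0.00191), and reached 173 ± 10.5 in the BLA, above the Nacc, the mPFC and the ACC. The lowest Gja1 level was that of the ACC at 135 ± 9.63 CPM, whereas that of Gjb6 was that of the BLA.

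Gfap, the cytoskeletal marker, stood highest in the hippocampus. From lowest over median to highest its CPM were 179, 258 and 333 in the vHipp, 27.6, 62.98 and 139 in the ACC, 11.9, 43.1 and 221 in the DMT and 14.5, 33.1 and 142 in the Nacc. The vHipp libraries did not overlap with the ACC, but the highest DMT library reached into the vHipp range. The differences were 2.23 ± 0.095 in the vHipp, a 4.69-fold change (adjusted p = 1.55e-58), -0.95 ± 0.121 in the Nacc and -0.60 ± 0.118 in the DMT. Below the vHipp, no step from a region to the next (ACC, BLA, mPFC, DMT, Nacc) passed the test, with adjusted p of 0.41, 0.701, 0.147 and 0.0544. S100b, a calcium-binding protein also found in oligodendrocyte lineage cells, was instead higher in the DMT by 0.57 ± 0.025.

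Among the metabolic genes given here, the ratio of the highest to the lowest region mean ran from 1.39 (Cbs) to 1.57 (Acsbg1). Some other members were as flat, such as Mlc1 at 1.45 and Sox9 at 1.55. Glul ran from 585 over a median of 716 to 1017 CPM in the BLA, with a difference of -0.51 ± 0.02, and its mean was 980 to 1139 CPM in the other regions. Neither the mPFC against the ACC (adjusted p = 0.862) nor the Nacc against the DMT (adjusted p = 0.096) passed the test. Aldoc was higher in the DMT by 0.51 ± 0.018. Ppp1r3c, which directs protein phosphatase 1 to glycogen, was higher in the vHipp by 0.52 ± 0.023, at 33.3 ± 3.35 CPM against 21.6 to 25.7 elsewhere. Acsbg1, an acyl-CoA synthetase, averaged 138 ± 8.31 CPM in the DMT and 88 ± 6.99 in the ACC, and Cbs, the transsulfuration enzyme, 30.4 ± 3.43 in the vHipp and 21.9 to 23.04 elsewhere, both without a call.

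Receptors and transcription factors split as well. Fgfr3, a fibroblast growth factor receptor, and Ntsr2, a neurotensin receptor, were higher in the DMT by 0.51 ± 0.018 and 0.57 ± 0.024, and Ntsr2 differed by -0.59 ± 0.026 in the mPFC and -0.55 ± 0.026 in the ACC. Gli3 ran against the thalamic pattern, with lowest, median and highest CPM of 3.66, 5.50 and 8.16 in the DMT and 10.3, 16.2 and 28.7 in the BLA, which did not overlap. The differences were -1.15 ± 0.046 in the DMT (adjusted p = 4.27e-63), 0.76 ± 0.039 in the BLA and 0.60 ± 0.039 in the Nacc. Id3, an inhibitor of basic helix-loop-helix factors, and Fabp7, a lipid-binding protein of glial progenitors and astrocytes, were higher in the vHipp by 0.50 ± 0.041 and 0.52 ± 0.054. Sox9, a glial fate factor, averaged 38.4 ± 4.45 CPM in the vHipp and 24.8 ± 2.64 in the Nacc, and Bmpr1b, a bone morphogenetic protein receptor, 21.9 ± 2.64 in the vHipp and 15.2 ± 1.75 in the ACC, without a call.

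**Figure D2:**
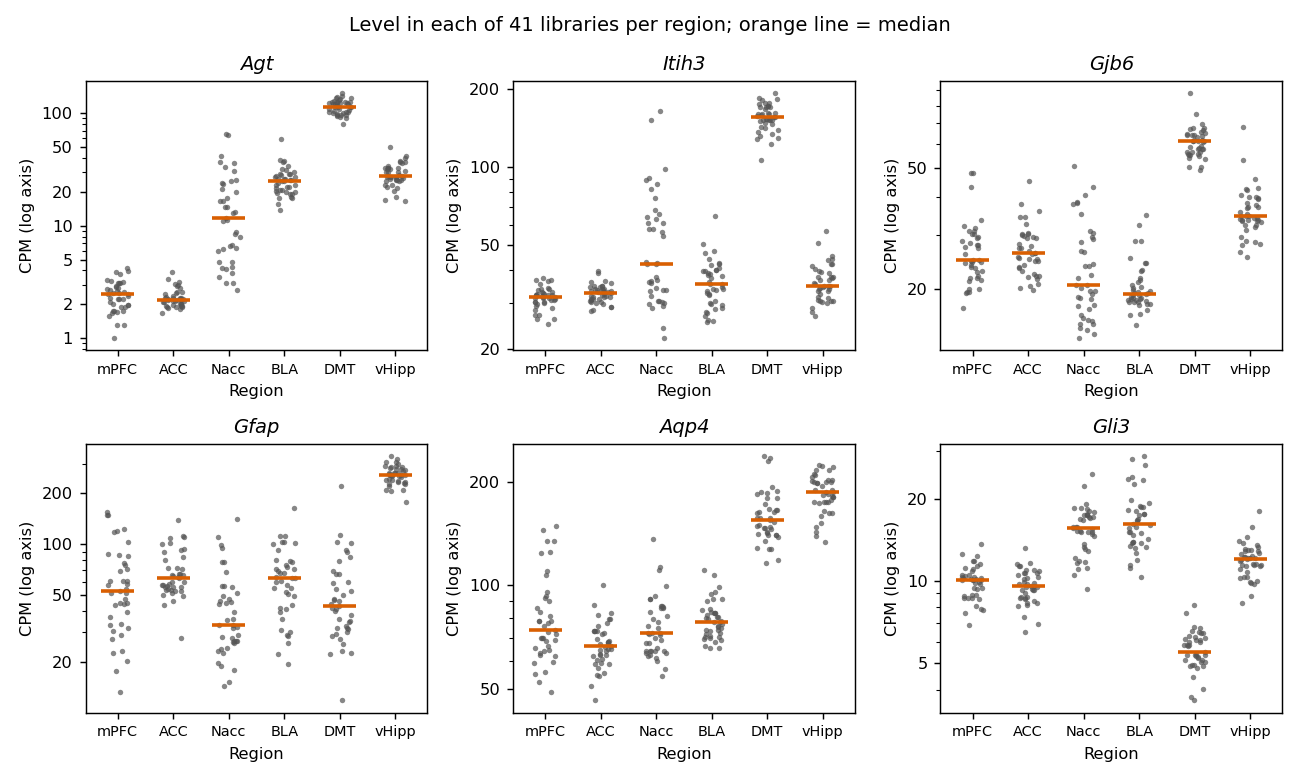
Level of Agt, Itih3, Gjb6, Gfap, Aqp4 and Gli3 in every library (CPM, log axis) by brain region, 41 libraries per region, with the median as an orange line. Agt sits at 80.4 to 150 CPM in the DMT, above all other libraries, and Gfap at 179 to 333 CPM in the vHipp.

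Sequence upstream of the start was taken from RefSeq on GRCm38.p6, another build than the GRCm39 of the deposited table, for 27 of the 31 genes. Shown are the 250 bases before the start of Agt, the gene with the largest regional difference, and of Glul and Gjb6, the most widely called after social interaction in the comparison that follows. The letters searched on both strands were TTGGCA (nuclear factor I), AACAAT and ACAAAG (SOX), TTCNNNGAA (STAT) and TGTTCT, or AGAACA on the other strand (glucocorticoid receptor). Capitals mark a match.
Agt, chr8:124569707-124569956, minus strand: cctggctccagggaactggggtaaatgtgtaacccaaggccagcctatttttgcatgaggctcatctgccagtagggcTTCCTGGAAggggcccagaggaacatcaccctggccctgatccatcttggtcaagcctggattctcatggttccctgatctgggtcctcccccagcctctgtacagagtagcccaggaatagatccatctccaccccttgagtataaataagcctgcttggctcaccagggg
Glul, chr1:153899679-153899928, plus strand: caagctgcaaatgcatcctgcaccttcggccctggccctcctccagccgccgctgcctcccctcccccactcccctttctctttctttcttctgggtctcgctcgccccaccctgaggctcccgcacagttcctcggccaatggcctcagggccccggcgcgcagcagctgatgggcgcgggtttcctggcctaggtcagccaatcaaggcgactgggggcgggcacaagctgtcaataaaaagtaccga
Gjb6, chr14:57133612-57133861, minus strand: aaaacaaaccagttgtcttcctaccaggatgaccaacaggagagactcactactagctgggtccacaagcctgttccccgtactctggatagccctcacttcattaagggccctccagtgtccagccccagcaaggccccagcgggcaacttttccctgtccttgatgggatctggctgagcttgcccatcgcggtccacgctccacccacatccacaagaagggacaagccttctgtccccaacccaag
The Agt window held the STAT letters TTCCTGGAA from base -172 to -164, and none of the searched letters stood in the Glul and Gjb6 windows. The STAT letters were found in 3 of 27 windows (Acsbg1, Agt and Ntsr2) and in 7.18% of windows of 27025 genes. TTGGCA stood in 3 (Aldoc, Hepacam and S100b; 12.5% of all windows), ACAAAG in 3 (Apoe, Bmpr1b and Cldn10; 16.5%), AACAAT in 1 (Bmpr1b; 9.65%) and the glucocorticoid receptor letters in 2 (Apoe and Hepacam; 16.2%). A match describes the letters only.

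Other lists gave the cellular setting of these regional levels, with differences on the log2 scale. All 10 oligodendrocyte genes were higher in the DMT (Mag 1.21) and all 10 lower in the mPFC (Mag -1.17), 5 were lower in the vHipp and none was called in the other 3 regions, so myelin RNA moved with the astrocyte genes in the DMT and the mPFC but not in the vHipp, and its part in their levels was not tested. Of 5 precursor genes, Olig1 was called, at -0.72 in the mPFC and 0.90 in the DMT. Of 8 microglial genes 3 were lower in the DMT (P2ry12 -0.74, Cx3cr1 -0.56), and none of 7 endothelial and mural genes was called in any region. The 10 neuronal genes split within each region, with 2 higher and 4 lower in the DMT, 2 and 2 in the vHipp, 1 and 1 in the mPFC, 2 and 1 in the ACC, and 2 and 3 in both the Nacc and the BLA. All 8 choroid plexus and ependymal genes were higher in the BLA (Folr1 7.69, Prlr 4.59) and 7 in the DMT (Prlr 2.85), with 1 higher and 2 lower in the vHipp and 8, 7 and 8 lower in the mPFC, the ACC and the Nacc. The 7 olfactory bulb genes were all higher in the mPFC (Cdhr1 3.05), 4 were higher in the ACC and 4 higher and 1 lower in the Nacc, whereas the BLA had 4 lower, the DMT 5 and the vHipp 4, beside 1 higher. Of 5 meningeal fibroblast genes 2 were lower in each of the mPFC, the ACC and the Nacc, 1 was higher and 1 lower in the BLA, 3 were higher in the vHipp and none was called in the DMT.

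Further astrocyte lists showed the same 2 regions in part. Of 15 other transport and coupling genes 8 were higher in the DMT, among them the potassium channel gene Kcnj10 by 1.76 and the glycine transporter gene Slc6a9 by 1.63, and 1 lower. In the vHipp 1 was higher, the urea transporter gene Slc14a1 by 1.11, and 2 were lower, while 4 were lower in each cortical region and 1 in the Nacc and the BLA. Of 7 glycogen and glucose genes 4 were higher in the DMT (Gbe1 1.96, Pygm 1.61) and 1 lower. The vHipp had 2 higher (Pygb 0.64), the ACC had 1 lower, and none was called elsewhere. Of 9 lipid genes 5 were higher in the DMT, where the lipoprotein lipase gene Lpl was the lower gene at -3.36, and 3 were higher in the vHipp, where Lpl stood at 2.23. In the other regions 3 were lower in the mPFC, 5 in the ACC, 1 was higher and 2 lower in the Nacc and 3 were higher in the BLA. Of 8 Notch and hedgehog genes 2 were higher in the DMT (Gli1 1.79, Ptch1 1.03) and 1 lower, and 2 higher in the vHipp (Smo 1.52, Notch2 1.04) and 1 lower, with 2 lower in the mPFC, 3 lower in the ACC, 2 higher in the Nacc and none in the BLA. The 21 genes of reactive astrocytes had 6 higher and 4 lower in the DMT (Amigo2 1.77), 7 and 3 in the vHipp (Cd109 3.82, Serpina3n 2.08), 4 and 4 in the mPFC, 3 and 5 in the ACC, 0 and 5 in the Nacc and 4 and 2 in the BLA.

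Within a region most pairs of the 31 genes were positively correlated from library to library, from 73.5% of pairs in the DMT to 99.6% in the mPFC. With group means removed, the median Pearson correlation over 465 pairs of genes was 0.61 in the mPFC, 0.51 in the Nacc (0.57 without the 12 libraries), 0.36 in the vHipp, 0.31 in the BLA, 0.25 in the ACC and 0.22 in the DMT, where that of pairs of all genes was 0, over 41 libraries that share the region, the punch and the depth of each library. Averaged over the regions the closest pairs were Acsbg1 with Aldoc (0.73), Gjb6 with Fgfr3 (0.70), Gfap with Aqp4 (0.69) and Aldh1l1 with Gjb6 (0.68). The lowest were Glul with Fabp7 and Gjb6 with Bmpr1b, both -0.12.

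Part of this variation moved with markers of neighbouring tissue, given here as correlations of log2 CPM over 41 libraries and described where they lay over 0.5 in either direction. In the mPFC the correlation with the summed olfactory bulb markers ranged from 0.09 to 0.84 over the 31 genes, with a median of 0.49, and exceeded 0.5 for 14. Fabp7, which olfactory ensheathing glia also make, stood at 0.84, Aqp4 at 0.82, Lcat at 0.81 and Slc4a4 at 0.80. Mean Gfap rose from 41.6 CPM in the 10 mPFC libraries with the least olfactory bulb signal to 109 in the 10 with the most, mean Aqp4 from 64.3 to 120 and mean Fabp7 from 22.2 to 62.8. In the ACC only Fabp7 passed 0.5 among the 31, at 0.74. In the BLA 11 genes followed the choroid plexus and ependymal markers in either direction, from -0.78 for Gli3 to 0.81 for Sox9, with Clu at 0.77 and Gfap at 0.65. Mean Gli3 was 22.4 CPM in the 10 BLA libraries with the least of these markers and 13.2 in the 10 with the most, and mean Clu 624 and 820. In the DMT 3 did so, Gfap at 0.60, Itih3 at -0.55 and Aldoc at -0.53, and in the vHipp none passed 0.5. In the Nacc 21 did, from -0.67 for Bmpr1b to 0.87 for Itih3, with a median of 0.60. In the mPFC 18 also moved with the choroid plexus and ependymal markers, with a median of 0.51. Choroid plexus RNA was scarce in both, with a median Ttr of 0.0719 CPM in the Nacc and 0.0441 in the mPFC. Kl had the highest median of these markers there, at 5.59 and 3.08 CPM. Whether such low sums reflect neighbouring tissue was not tested. The olfactory bulb markers gave 6 such genes for the BLA, 5 for the DMT, 1 for the Nacc and 0 for the vHipp. In the BLA and the DMT, Gng13 had the highest median of that list, at 13.3 and 7.41 CPM. Depth and the punch are shared by all points, and the part of the neighbouring tissue in the regional levels was not tested.

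**Figure D3:**
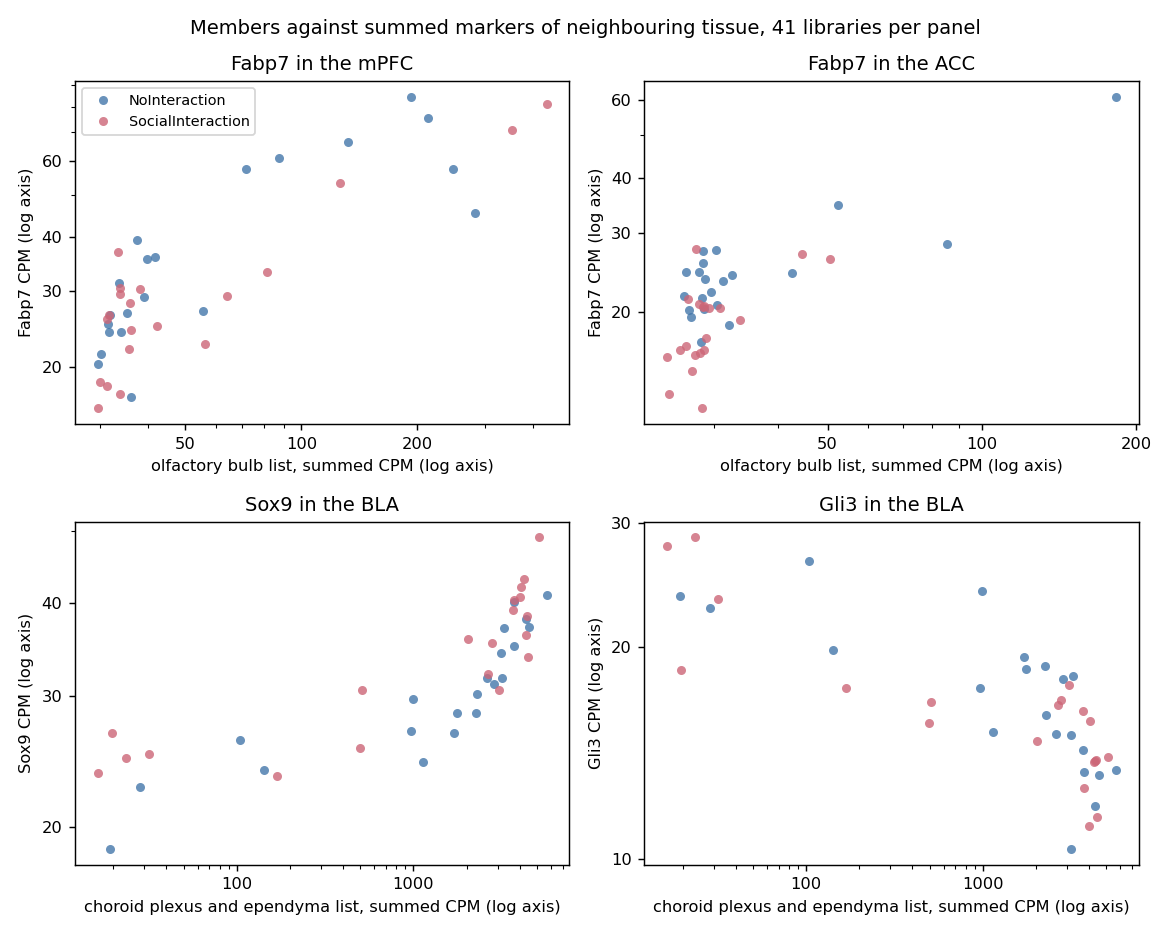
Level of Fabp7 in the mPFC and the ACC against the summed olfactory bulb markers, and of Sox9 and Gli3 in the BLA against the summed choroid plexus and ependymal markers, all in CPM on log axes, 1 point per library (n = 41 each). Fabp7 and Sox9 rise with the markers (r = 0.84, 0.74 and 0.81) and Gli3 falls (r = -0.78).

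The conditions were compared in each region over all 41 libraries, and again with the 6 regions of a mouse summed. No astrocyte gene passed the test in ELA_Veh against Ctrl_Veh, ELA_SAFit2 against ELA_Veh or ELA_SAFit2 against Ctrl_Veh, with both sets together or in either set, by edgeR or by DESeq2. Few other genes did. With both sets together the share of all genes called by edgeR was 0.00632% for ELA_Veh against Ctrl_Veh in the mPFC, 0.0126% and 0.00625% for ELA_SAFit2 against ELA_Veh in the mPFC and the BLA, and 0.0190%, 0.0252%, 0.00636% and 0.00575% for ELA_SAFit2 against Ctrl_Veh in the mPFC, the DMT, the vHipp and the summed regions. In NoInteraction mice it was 0.00632% in the mPFC for the former 2 comparisons, in SocialInteraction mice 0.00636% in the vHipp for ELA_Veh against Ctrl_Veh, and 0% in all other cases. At an unadjusted p under 0.05 in ELA_Veh against Ctrl_Veh, 0 of the 31 stood in the mPFC and the Nacc (3.94% and 2.80% of all genes), 1 in the DMT and the vHipp (3.79% and 6.69%), 2 in the ACC and the BLA (5.44% and 4.48%), and 4, or 12.9%, with the regions summed (6.69%). None of the other lists had a called gene in a condition comparison, and region by condition terms called none of the 31.

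The smallest p for ELA_Veh against Ctrl_Veh belonged to Ppp1r3c with the regions summed. Its lowest, median and highest CPM were 23.1, 23.7 and 25.6 in 13 Ctrl_Veh mice, 23.6, 25.4 and 28.5 in 14 ELA_Veh mice and 22.2, 25.2 and 28.5 in 14 ELA_SAFit2 mice. The ELA_Veh range began inside that of Ctrl_Veh and ended above it. The log2 difference was 0.10 ± 0.027 (95% interval 0.05 to 0.15, unadjusted p = 0.00059, edgeR adjusted p = 0.33), and it was 0.12 in the mPFC and the ACC, 0.11 in the vHipp, 0.10 in the BLA, 0.08 in the Nacc and 0.06 in the DMT. For ELA_SAFit2 against ELA_Veh the smallest p with the regions summed was that of Lcat, at 14.9 ± 1.30 CPM in ELA_Veh and 15.8 ± 1.601 in ELA_SAFit2 (0.08 ± 0.042, edgeR adjusted p = 0.88). For ELA_SAFit2 against Ctrl_Veh it was that of Aqp4, at 102.6 ± 10.4 and 112 ± 9.11 CPM (0.14 ± 0.046, edgeR adjusted p = 0.65). Single regions had their smallest p for ELA_Veh against Ctrl_Veh in Ppp1r3c (mPFC, ACC and vHipp), Aqp4 (Nacc, 0.21), Agt (BLA, 0.31) and Itih3 (DMT, -0.14), at adjusted p of 0.74 to 1.0.

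The intervals show what these groups could resolve. In ELA_Veh against Ctrl_Veh the 95% intervals of the 31 genes reached, as a median, to either side of the estimate by 0.09 in the DMT, 0.11 in the ACC and the vHipp, 0.13 in the BLA and 0.15 in the mPFC and the Nacc, and 0.07 with the regions summed, and the widest was 0.95 in the Nacc. In the ACC, 29 of the 31 lay above 0 in ELA_Veh against Ctrl_Veh in NoInteraction mice, where 52.4% of all genes did, and 11 of 31 did in SocialInteraction mice, where 50.6% of all genes did. In the former set, Hepacam had the smallest p (0.20 ± 0.075, unadjusted p = 0.0097, edgeR adjusted p = 0.95). The effect of adversity in the ACC differed between the sets for none of the 31 by edgeR's adjusted p, and at an unadjusted p under 0.05 for 8, or 25.8%, against 11.6% of all genes, with the smallest for Cldn10 (-0.31). The mPFC ran the other way, with 4 of the 31 above 0 in NoInteraction mice (51.4% of all genes) and 25 in SocialInteraction mice (52.7%). In the Nacc, the BLA, the DMT and the vHipp, 14 to 25 lay above 0 in either set. The 31 genes of a library move together, so these counts are not independent.

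Social interaction was compared with no interaction over the 3 conditions, 20 mice against 21, and here single astrocyte genes changed. The share of all genes called was 7.40% in the mPFC, where 1 of the 31 was called, 4.15% in the ACC with 2, 0% in the Nacc with 0, 1.49% in the BLA with 2, 1.60% in the DMT with 3 and 1.21% in the vHipp with 2, all by adjusted p under 0.05 with no limit on the difference. With the regions summed it was 8.56% with 5 of the 31. The median difference of the 31 lay within 0.02 of 0 in each of these. In all, 7 were called in a region, 8 with the summed regions included and 23 nowhere. In the Nacc, 391 of all genes and 1 of the 31 had an unadjusted p under 0.05 by edgeR, and DESeq2 also called 0. Of the 12 Nacc libraries that match another mouse, 8 matched best a mouse of the other set. Apart from leaving the 12 out, the effect of this on the comparison was not tested. Without the 12, edgeR called 0.0256% of all genes and 0 of the 31 there.

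**Figure D4:**
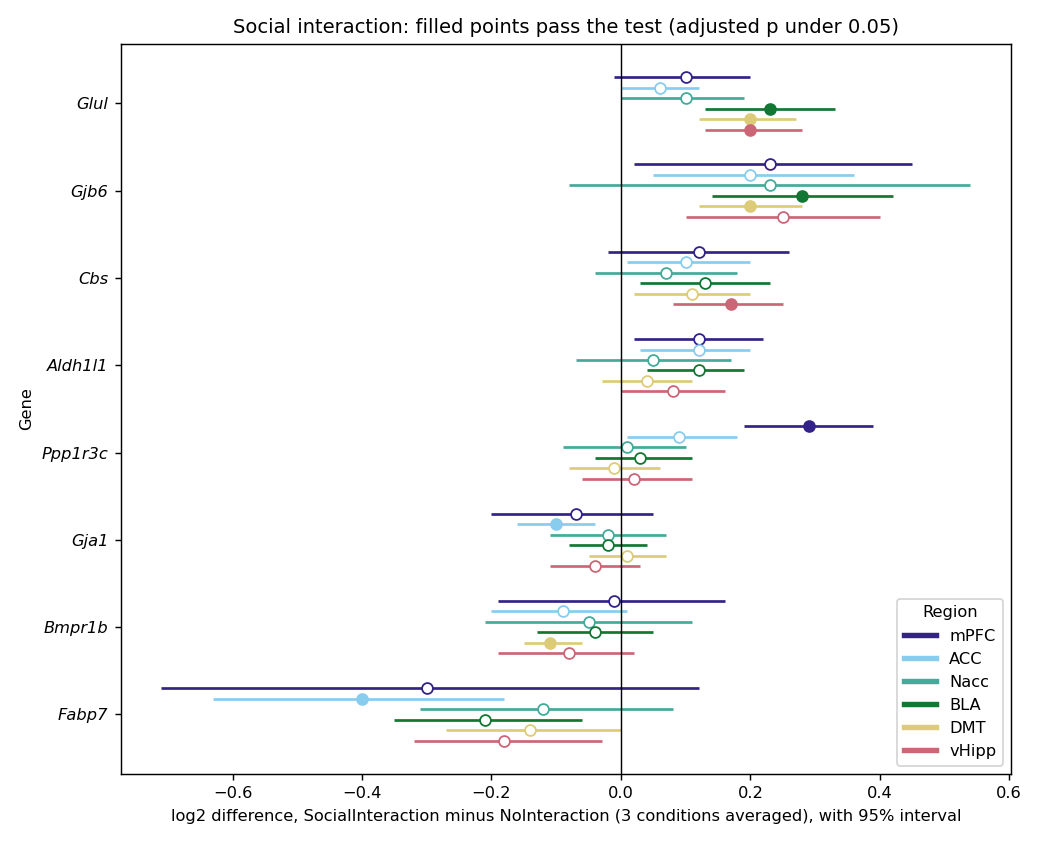
Log2 difference between SocialInteraction and NoInteraction mice (x axis) with its 95% interval for the 8 astrocyte genes called in a region or with the regions summed, by region (colour), n = 20 and 21 mice. Filled points have an adjusted p under 0.05: Glul in the BLA, DMT and vHipp, Gjb6 in the BLA and DMT, Ppp1r3c in the mPFC, Fabp7 and Gja1 in the ACC, Bmpr1b in the DMT and Cbs in the vHipp.

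Glul rose in 3 regions. Its lowest, median and highest CPM went from 585, 682 and 864 in NoInteraction to 670, 789 and 1017 in SocialInteraction mice in the BLA, from 827, 911 and 1072 to 900, 1034 and 1333 in the DMT, and from 913, 1052 and 1210 to 1006, 1222 and 1458 in the vHipp. Of the 20 SocialInteraction mice, 19, 18 and 18 lay above the NoInteraction median in these regions, and 10 lay above the highest NoInteraction mouse in the vHipp. The differences were 0.23 ± 0.049 (adjusted p = 0.013), 0.20 ± 0.037 (adjusted p = 0.0022) and 0.20 ± 0.038 (adjusted p = 0.0029). It was not called in the mPFC (0.10, adjusted p = 0.29), the ACC (0.06, adjusted p = 0.33) or the Nacc (0.10, adjusted p = 1.0; 0.17 and 0.29 without the 12 libraries), and the test of a difference between regions gave an adjusted p of 0.10. Summed over the regions it went from a median of 952 to 1037 CPM (0.14 ± 0.029, adjusted p = 0.0026).

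Gjb6 rose in the BLA and the DMT. In the BLA its lowest, median and highest CPM went from 15.3, 18.6 and 22.9 to 17.8, 21.03 and 35, with 8 of 20 SocialInteraction mice above the highest NoInteraction mouse (0.28 ± 0.07, adjusted p = 0.03, and 0.065 with no filter on genes). In the DMT they went from 49.03, 56.4 and 64.0 to 53.9, 64.4 and 87.9, with 12 of 20 above the highest (0.20 ± 0.038, adjusted p = 0.0026). The difference lay between 0.20 and 0.28 in all 6 regions but was not called in the vHipp (0.25, adjusted p = 0.093), the mPFC (0.23, adjusted p = 0.2), the ACC (0.20, adjusted p = 0.14) or the Nacc (0.23, adjusted p = 1.0). With the regions summed, 19 of 20 lay above the NoInteraction median (0.23 ± 0.06, adjusted p = 0.013). Its partner Gja1 went the other way in the ACC, from a median of 138 to 130 CPM, with 18 of 20 below the NoInteraction median (-0.10 ± 0.029, adjusted p = 0.041). This call was lost with no filter on genes (adjusted p = 0.088) and with olfactory bulb and choroid plexus sums as covariates (-0.09, adjusted p = 0.06).

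Ppp1r3c rose in the mPFC. Its CPM went from 17.3, 19.9 and 26.0 to 19.5, 24.9 and 31.6, with 18 of 20 mice above the NoInteraction median and 8 above the highest (0.29 ± 0.051, 95% interval 0.19 to 0.39, adjusted p = 0.00027). The differences in the other regions were 0.09 in the ACC, 0.03 in the BLA, 0.02 in the vHipp, 0.01 in the Nacc and -0.01 in the DMT. Of the 31, Ppp1r3c alone had a response that differed between regions (F test of the region by social interaction term, adjusted p = 0.0011, and 0.0019 without the 12 Nacc libraries), with 0.644% of all genes called. Group medians in the mPFC went from 19.9 to 22.1 CPM in Ctrl_Veh, from 19.4 to 26.6 in ELA_Veh and from 20.1 to 26.8 in ELA_SAFit2. Within ELA_SAFit2 it was called (0.38, adjusted p = 0.018, with 1.21% of all genes called). In ELA_Veh the difference was also 0.38 (adjusted p = 0.085) and in Ctrl_Veh 0.11, and the responses of ELA_SAFit2 and ELA_Veh differed by 0.0 (95% interval -0.25 to 0.25). The responses of ELA_Veh and Ctrl_Veh in the mPFC did not differ by edgeR's adjusted p for Ppp1r3c or any other of the 31. The Ctrl_Veh NoInteraction group held a library far above the rest, at 26.0 CPM (nearest 21.3). With the regions summed over all mice Ppp1r3c stood at 0.07 ± 0.022 (adjusted p = 0.032).

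Cbs rose in the vHipp, from 22.8, 28.6 and 34.2 to 28.0, 31.9 and 39.1 CPM (0.17 ± 0.042, adjusted p = 0.032), and lay above 0 in all 6 regions. The vHipp call was lost with no filter on genes (adjusted p = 0.054) and with the marker sums as covariates (0.15, adjusted p = 0.43), where the share of all genes called also went down to 0.114%. With the regions summed, Cbs (0.12 ± 0.034, adjusted p = 0.02) and Aldh1l1 (0.08 ± 0.027, adjusted p = 0.043) were called as well. The sums hold the 12 Nacc libraries that match another mouse, and summed over the other 5 regions alone Glul (0.14, adjusted p = 0.0017), Gjb6 (0.23, adjusted p = 0.0034), Cbs (0.13, adjusted p = 0.014), Ppp1r3c (0.08, adjusted p = 0.017), Aldh1l1 (0.09, adjusted p = 0.021) and Acsbg1 (0.07, adjusted p = 0.024) were called, with 10.7% of all genes. With no filter on genes the summed calls of Ppp1r3c and Aldh1l1 were lost. Glul, Gjb6, Cbs and Aldh1l1 had a positive difference in each region, and Fabp7 and Bmpr1b had a negative difference in each.

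Fabp7 fell in the ACC, where its lowest, median and highest CPM went from 17.1, 23.7 and 60.95 to 12.1, 18.3 and 27.7, and 9 of 20 SocialInteraction mice lay below the lowest NoInteraction mouse (-0.40 ± 0.11, adjusted p = 0.027). Both ACC libraries with over 2 times the median olfactory bulb signal were NoInteraction mice, and without them the difference was -0.29 (adjusted p = 0.056). With the marker sums as covariates it was -0.25 (adjusted p = 0.03). In the other regions Fabp7 lay between -0.30 and -0.12 without a call, and with the regions summed at -0.21 ± 0.073 (adjusted p = 0.059), with 18 of 20 mice below the NoInteraction median. In the mPFC, 6 of the 10 libraries with a high olfactory bulb signal were NoInteraction mice, and without all 10 Gjb6 (0.36), Acsbg1 (0.17) and Aldh1l1 (0.17) were called beside Ppp1r3c (0.29), with 5.26% of all genes.

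Bmpr1b fell in the DMT by 0.11 ± 0.022 on the log2 scale (adjusted p = 0.0041), from 18.7, 20.8 and 22.1 CPM to 16.6, 19.2 and 21.5. The change was uneven over the conditions. In ELA_SAFit2 its lowest, median and highest CPM went from 19.8, 21.04 and 22.1 to 16.6, 17.4 and 19.2 (n = 7 each), with no overlap (-0.24, adjusted p = 0.0015, with 0.0379% of all genes called). In ELA_Veh the difference was -0.01 and in Ctrl_Veh -0.08. The difference between ELA_SAFit2 and ELA_Veh in this response, -0.22, had an unadjusted p of 0.00012 and did not pass over all genes (edgeR adjusted p = 0.24). Within SocialInteraction mice ELA_SAFit2 and ELA_Veh differed by -0.17 ± 0.037 in the DMT (unadjusted p = 4.5e-05, edgeR adjusted p = 0.36).

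**Figure D5:**
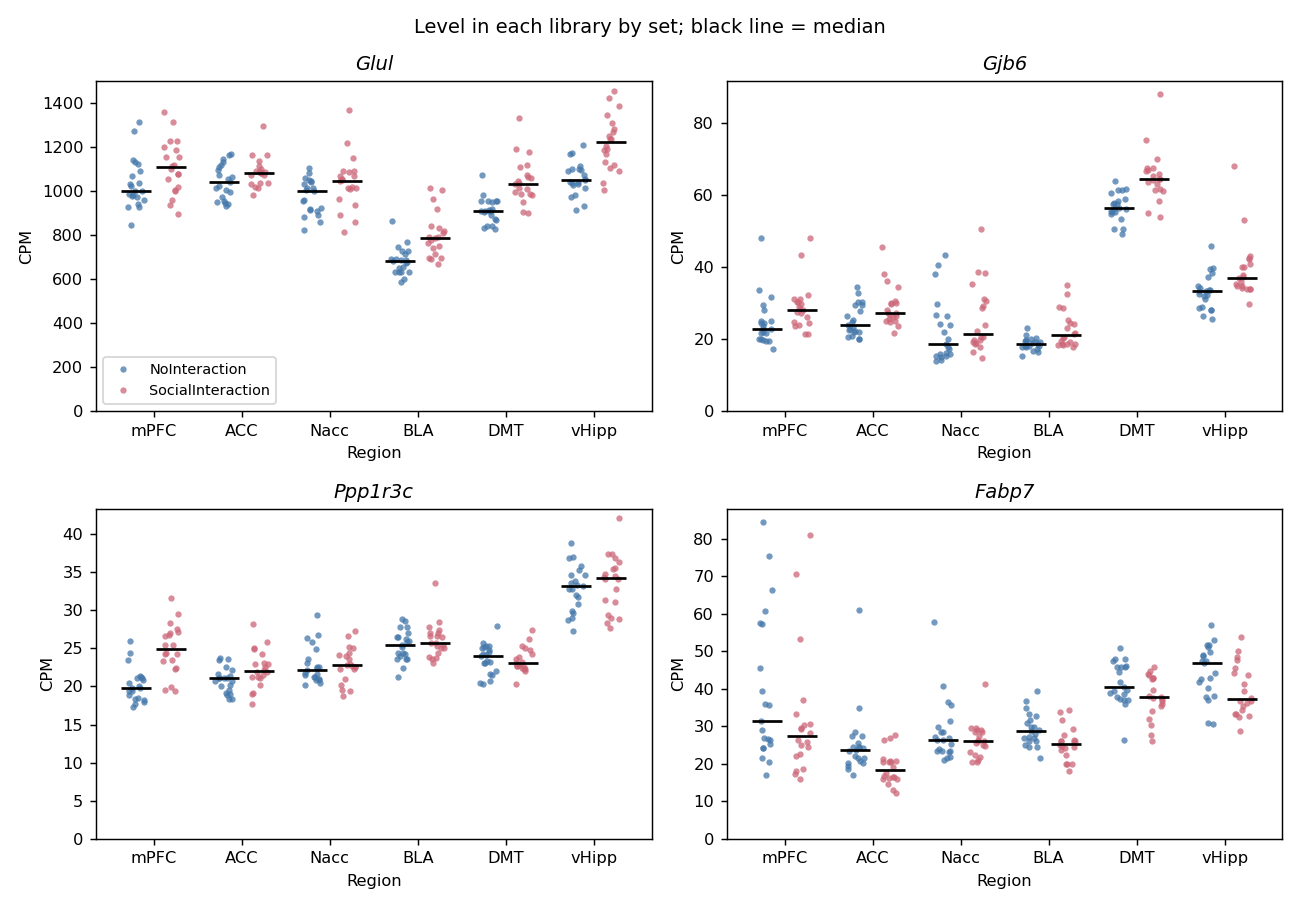
Level of Glul, Gjb6, Ppp1r3c and Fabp7 (CPM) in NoInteraction (n = 21) and SocialInteraction (n = 20) mice by brain region, 1 point per library, with the median as a line. Glul medians go from 911 to 1034 CPM in the DMT and from 1052 to 1222 in the vHipp, and Fabp7 from 23.7 to 18.3 in the ACC.

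Among the other lists single genes were called after social interaction. Of the reactive astrocyte genes, the heat shock gene Hspb1 was higher in the mPFC by 0.67, the ACC by 0.72, the BLA by 0.70, the DMT by 0.51 and the vHipp by 0.80, Cd44 was lower in the mPFC (-0.43) and the ACC (-0.27), and Serpina3n was higher in the vHipp (0.18). The transport genes Slc14a1 (-0.24) and Slc6a11 (-0.17), which encodes a GABA transporter, were lower in the ACC, and the glycogen gene Pygb was lower there too (-0.07). Pfkfb3, a regulator of glycolysis, was higher in the mPFC by 0.21, and the lipid list gene Paqr6 was lower in the BLA (-0.21) and the vHipp (-0.18). Of other cell types, the endothelial gene Ly6c1 was higher in 5 regions by 0.26 to 0.34, the precursor gene Cspg4 in the mPFC, the ACC and the BLA, and the neuronal gene Nefl in the ACC (0.14), whereas the endothelial transporter gene Slco1a4 (-0.18) and the microglial gene P2ry12 (-0.17) were lower in the ACC and the oligodendrocyte gene Opalin in the vHipp (-0.55). None of the choroid plexus, olfactory bulb, meningeal or Notch and hedgehog genes was called, although the 7 olfactory bulb genes had a median of -0.94 in the ACC.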

How the data were processed

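RNA was taken from punches of 6 brain regions of 41 mice, selected by poly-A, and sequenced as stranded libraries. The authors quantified reads per gene, and the deposited table, by its name made with salmon, holds estimated counts for 56691 genes in 246 libraries, with no scaling for depth or length. The submitters' processing notes name STAR, DESeq2 and GRCm39 (mm39), with no version given in the sources used here. Of the values, 12.12% were not whole, and all were rounded for the tests. No 2 libraries held identical columns.

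Gene types and exon lengths came from GENCODE M21 on GRCm38, another build, so no positions of the table's genes are given. Genes were kept when they were protein-coding, summed to 100 counts or more and were counted in 6 or more libraries. All 31 astrocyte genes passed this filter in every fit. edgeR 4.0.16 (R 4.3.3) was used with TMM factors, glmQLFit and glmQLFTest, and Benjamini-Hochberg adjustment over all genes tested. Regions were compared in 1 fit of all libraries with the mouse number as a block, since a number is 1 animal in the labels. Conditions and social interaction were compared within a region over 41 libraries in 6 groups, and with the counts of a mouse's 6 regions summed. These groups hold different mice and no block could be made. Standard errors were taken from the estimate and its F value, and 95% intervals from these. DESeq2 1.42.0 was an alternative. Correlations used log2 CPM with 0.5 added, or 0.1 for those with marker lists. Simulated counts had 200 genes changed by 1 on the log2 scale and the same dispersion for every gene. The fit of the conditions recovered 97.5% of them over 15812 genes of the mPFC, with 9 false calls. The fit of the regions recovered 99.5% over 2173 genes, with 1 false call. Smaller differences, such as those seen between conditions and sets, were not simulated, so recovery of these is not known.

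The members and the marker lists were chosen with earlier results of these data known. Lists covered neuron, oligodendrocyte, oligodendrocyte precursor, microglia, endothelial and mural, choroid plexus and ependyma, olfactory bulb and meningeal fibroblast genes. Astrocyte lists held reactive, transport, lipid, Notch and hedgehog, and glycogen and glucose genes. Every member could be named. Full values were given for members called in a condition or social comparison and for the 3 largest regional differences per region and direction, and where none was called, the member with the smallest p was named. Of the other lists counts and up to 2 genes with the smallest p were named, together with further called genes chosen after their values were seen. Intervals and p-values of the condition and social comparisons cover the spread between mice. Those of the regional comparisons, with the mouse as a block, cover the spread left within mice. Nothing in the table carries molecular identifiers.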

Additional observations from a re-analysis of the deposited data

Results flagged for a closer look

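Groups of 6 or 7 libraries were searched for a library that stood far from the rest of its group. The search covered the summed level of the 31 genes and the genes called after social interaction. Of 96 groups, 8 held such a library, and chance gives about 1 in 20. In the mPFC, 1 ELA_Veh NoInteraction library held 0.541% of its counts in the 31 genes, where the nearest held 0.4%. In the BLA, the lowest Ctrl_Veh SocialInteraction library held 0.433%, the nearest 0.478%.

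For single genes, the highest library of a group stood apart in 6 cases. Ppp1r3c reached 26.0 CPM in a Ctrl_Veh NoInteraction library of the mPFC (nearest 21.3), and Gja1 148 CPM in an ELA_Veh SocialInteraction library of the ACC (nearest 129). Fabp7 reached 61 CPM in an ELA_SAFit2 NoInteraction library of the ACC (nearest 34.8). Gjb6 reached 28.7 CPM in an ELA_SAFit2 SocialInteraction library of the BLA (nearest 21.7) and 87.9 CPM in a Ctrl_Veh SocialInteraction library of the DMT (nearest 66.9). Cbs reached 39.1 CPM in a Ctrl_Veh SocialInteraction library of the vHipp (nearest 32.0).

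The response of Ppp1r3c to social interaction differed between the 6 regions, with an adjusted p of 0.0011 by edgeR's F test over 17381 genes, and was 0.29 on the log2 scale in the mPFC against -0.01 to 0.09 elsewhere.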

How the results depend on the processing

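With a limit of 1 on the log2 difference in place of 0.5, the regional counts were 1 lower in the mPFC, 1 lower in the ACC, 0 in either direction in the Nacc, 1 higher and 0 lower in the BLA, 4 higher and 1 lower in the DMT and 4 higher in the vHipp. Of all genes 4.13% were then lower in the mPFC, 4.52% lower in the ACC, 6.62% higher in the BLA, 8.80% higher and 9.60% lower in the DMT and 5.34% higher in the vHipp. In the Nacc 2 genes were called higher without the 12 libraries and also with no filter on genes. Without the replicate block, the mouse pairing of regions, counts stayed within 1.5 times those given, with 13 higher and 2 lower in the DMT, 6 higher in the vHipp, 5 lower in the mPFC, 8 lower in the ACC, 1 higher and 2 lower in the Nacc and 2 higher and 3 lower in the BLA. Of the 22 regional differences named by the rule, 142 of 154 values under alternatives kept their direction and call, and the other 12 fell under the limit of 1.

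After social interaction DESeq2 called 2 of the 31 in the mPFC (Gli3 and Ppp1r3c; 8.84% of all genes), 4 in the BLA (Aldh1l1, Gjb6, Glul and Itih3; 2.89%) and 9 with the regions summed (10.8%). With no filter on genes, 1 was called in the ACC (Fabp7; 0.951% of all genes), 1 in the BLA (Glul; 0.238%) and 1 in the vHipp (Glul; 0.269%), and 3 with the regions summed (Cbs, Gjb6 and Glul; 2.39%; added after seeing the data), as Gja1, Gjb6 and Cbs had adjusted p of 0.088, 0.065 and 0.054; more genes were then tested. Both remaining alternatives were added after seeing the data. Without libraries rich in olfactory bulb markers, 4 were called in the mPFC (5.26% of all genes) and 1 in the ACC (Gja1; 3.38%). With olfactory bulb and choroid plexus sums as covariates, 6 were called in the mPFC (11.3% of all genes), 1 in the ACC (Fabp7, adjusted p = 0.03; 4.12%), 3 in the BLA (3.22%) and 1 in the vHipp (Glul; 0.114%), with Gja1 at 0.06 and Cbs at 0.43; the cause was not tested. The condition counts were 0 under every alternative run. Leaving out single mice was not run, since no group holds 5 or fewer.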
